A study of Mus musculus with 20 samples.

Results

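The levels of 8 genes of hepatic fatty acid use were followed across all livers of the series: Ppara, Cpt1a, Acadm, Ehhadh, Bdh1, Pdk4, Cyp4a10 and Cyp4a14. They were chosen by name, without a measured value in the rule, but with earlier results of these data known. They are 8 of the 46078 genes in the count matrix. All 8 were found by symbol and passed the filter on low counts, which left 14759 genes for testing.

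The liver transcriptomes came from male mice, at least 9 weeks old, that carried 1 or no working copy of Cse (gene symbol Cth), the gene of cystathionine γ-lyase, on a mixed 129 and C57BL/6 background. Without this enzyme a mouse cannot make cysteine from methionine and relies on cysteine in the food. Every mouse, controls included, was first kept on a calorie-restricted control diet and then stayed on it or moved to a calorie-restricted diet without cystine (no-Cys) or without tryptophan (no-Trp), an amino acid that no mouse can make. Heterozygous mice, Cse+/-, received the control diet (n = 2), no-Cys (n = 4) or no-Trp (n = 3), and knockout mice, Cse-/-, received no-Cys (n = 4), no-Trp (n = 3) or no-Trp with BSO (n = 4), which blocks the first enzyme of glutathione synthesis. Sample labels give the control genotype as WT, whereas the study's list of mice gives it as HET. No Cse-/- livers on the control diet were analysed here, so the genotypes were compared only within the no-Cys and the no-Trp diets. Each liver is a different mouse and is called by its column heading in the matrix, av01 to av22.

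PPARα, the product of Ppara, is a nuclear receptor that binds fatty acids and, paired with the retinoid X receptor, turns on genes for burning fat in the fasted liver. Fatty acids enter mitochondria through the carnitine shuttle, whose controlling step is CPT1A, and are shortened there by β-oxidation to acetyl-CoA, which the fasted liver turns into ketone bodies. Very long fatty acids are first shortened in peroxisomes, and cytochromes of the CYP4A family oxidise the far end of the chain. Each of these routes is represented among the 8 genes, and PDK4 closes the entry of pyruvate into the mitochondrial acetyl-CoA pool when fat is burned.

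Counts on genes ranged from 11785740 to 57986121 per library, with a median of 15252745. Levels are given in CPM, the counts of a gene relative to all counts of its library, with the library totals scaled by TMM factors, which correct for differences in composition. Cth itself was between 88.4 and 332 CPM in the Cse+/- livers and between 6.37 and 14.4 CPM in the Cse-/- livers, so that no liver went against its genotype label. The 10 hepatocyte markers summed to at least 51260 CPM in every liver. Small amounts of other tissues were seen in some libraries. The 6 kidney genes summed to 22.4 CPM in av22 (Cse+/- control) and 6.79 CPM in av15 (Cse-/- no-Trp) and to at most 0.991 CPM elsewhere. The 8 adipocyte genes summed to 92.0 CPM in av17 (Cse+/- no-Trp) and 72.4 CPM in av14 (Cse-/- no-Trp) and to between 27.7 and 40.5 CPM elsewhere. Among them Adipoq, the adipocyte hormone adiponectin, was at 2.91 CPM in av17, 1.08 CPM in av14 and at most 0.156 CPM elsewhere, and Lep was at 0 in all 20 livers.

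Few of the 8 genes passed a test for diet or genotype. In the comparison with the most differences in the series, Cse-/- no-Cys against Cse+/- no-Cys, 1 of the 8 genes passed the test of edgeR, an adjusted p under 0.05, while 23.8% of all genes tested did. That gene was Acadm, which rose. All 8 differences were positive there, with a median of 0.39 on the log2 scale, though those of Ppara, Pdk4 and Bdh1 turned negative with 1 liver left out. The number called was 2 with DESeq2 (22.3% of all genes). It was 4 without the filter on low counts (11.1%) or without the liver av08 (23.7%). It was 0 at an adjusted p under 0.01 (12.6%) or without av01, av02, av05 or av06 (18.1% to 22.1%). In the other 8 comparisons none of the 8 genes passed, where from 0.0474% to 10.4% of all genes did. What the 8 genes did show was a spread between livers of the same group that was wider than that of a typical gene for 7 of them.

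**Figure D1:**
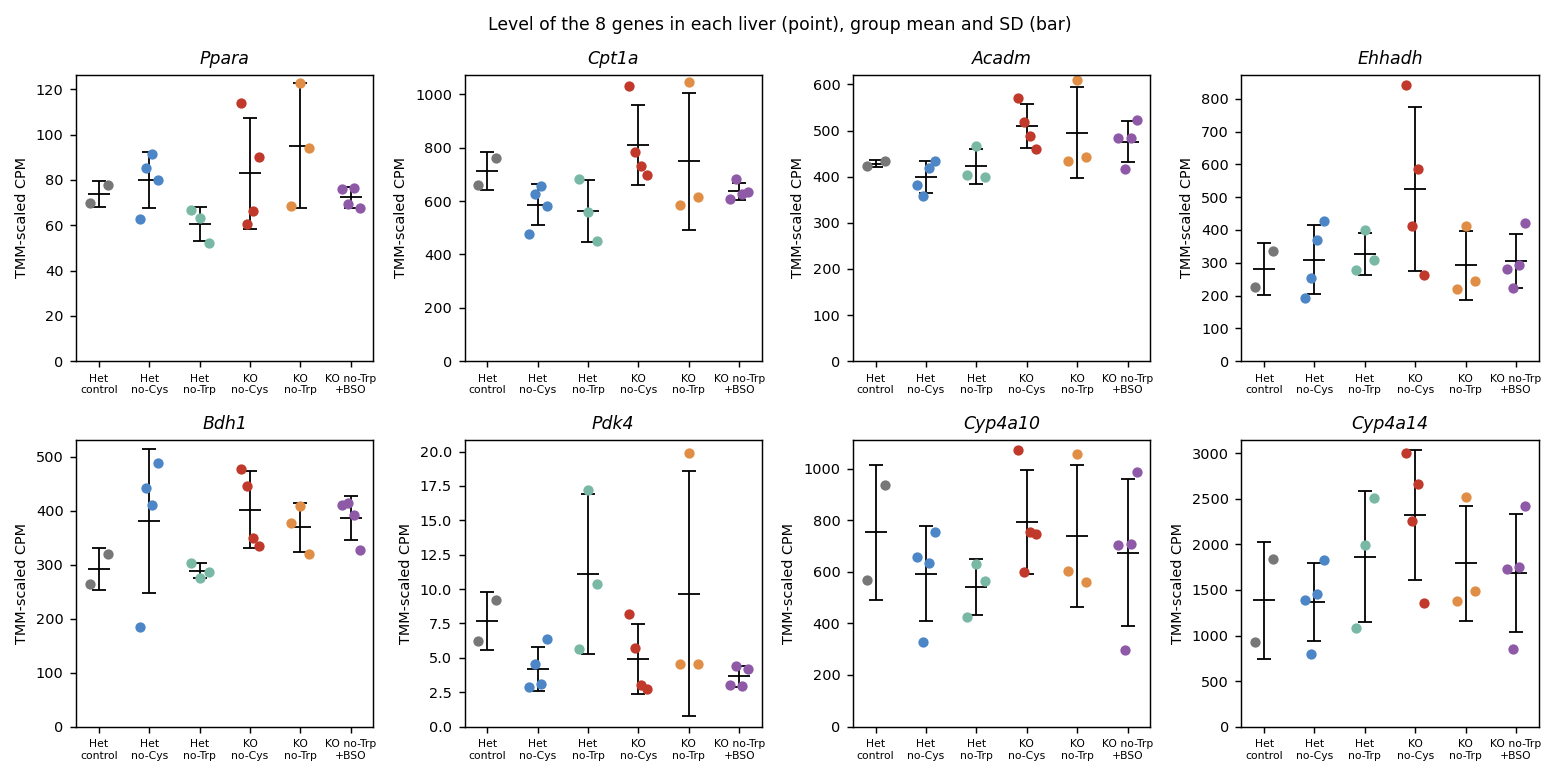
Level of each of the 8 genes in TMM-scaled CPM on a linear axis from 0 (one panel per gene, with its own range). Points are single livers, the horizontal mark is the group mean and the bar the SD; for Ppara, Cpt1a, Acadm and Cyp4a10 the 2 highest points are 1 liver of the Cse-/- no-Cys group and 1 of the Cse-/- no-Trp group.

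Acadm (ENSMUSG00000062908, chr3:153922357-153944632 on the minus strand; coordinates are those of GRCm38 in GENCODE M21) encodes medium-chain acyl-CoA dehydrogenase, the first enzyme of mitochondrial β-oxidation for medium-length fatty acids. In Cse-/- no-Cys livers it was at 570, 519, 488 and 461 CPM, and in Cse+/- no-Cys livers at 383, 358, 418 and 435 CPM. The lowest knockout liver lay above the highest heterozygous one. On the log2 scale the difference was 0.35 (standard error (SE) 0.112, a 1.28-fold rise) with an adjusted p of 0.0274 by the quasi-likelihood test of edgeR. The call rested on single livers: it was lost without av01 (adjusted p = 0.0565), av02 (0.0882), av05 (0.0815) or av06 (0.0623), though the difference stayed between 0.31 and 0.40 whichever liver was left out.

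Acadm was not called for genotype on the no-Trp diet. The 3 Cse-/- no-Trp livers had 435, 609 and 442 CPM, and the 3 Cse+/- no-Trp livers had 403, 467 and 400 CPM, ranges that overlap. The difference of 0.23 (SE 0.13, adjusted p = 0.366, edgeR) fell to 0.04 without av15. Nor did the 2 genotype differences differ from each other beyond error: the interaction of genotype and diet for Acadm was 0.13 (SE 0.171, adjusted p = 0.736). Diet within the Cse-/- genotype gave 0.04 (SE 0.121) for no-Cys minus no-Trp, and BSO gave −0.06 (SE 0.121) on the no-Trp diet. Of the 8 genes, Acadm had the smallest spread within groups, an SD of 0.156 on the log2 scale against a median of 0.203 over the 12582 genes tested with a mean of at least 1 CPM.

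Cpt1a (ENSMUSG00000024900, chr19:3322334-3385733 on the plus strand) encodes the liver form of carnitine palmitoyltransferase 1, which loads long-chain fatty acids onto carnitine at the outer mitochondrial membrane. Its levels were 1029, 785, 730 and 696 CPM in Cse-/- no-Cys livers and 478, 625, 656 and 583 CPM in Cse+/- no-Cys livers. As for Acadm, the ranges did not overlap, which held for 23.2% of all genes tested in this comparison and for 2 of the 8 genes. The difference of 0.47 (SE 0.17, 1.38-fold) narrowly missed the threshold in edgeR, with an adjusted p of 0.0522. It passed with the Wald test of DESeq2 (adjusted p = 0.0335), in a fit of these 2 groups alone (0.0454) and without av08 (0.0373), and without av05 its value was 0.34 (adjusted p = 0.175).

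On the no-Trp diet Cpt1a was at 586, 1044 and 616 CPM in Cse-/- and at 683, 558 and 450 CPM in Cse+/- livers. A single knockout liver, av15, stood far above the other 2, which lay within the heterozygous range. With it the genotype difference was 0.41 (SE 0.196, adjusted p = 0.272, edgeR), and without it 0.09. Cse-/- no-Trp livers with BSO had 606, 681, 626 and 635 CPM, all below the lowest Cse-/- no-Cys liver, with a difference from that group of −0.35 (SE 0.17, adjusted p = 0.26), or −0.21 without av05. Control livers of Cse+/- mice, at 661 and 761 CPM, were above all 4 Cse+/- no-Cys livers, a difference of −0.28 for no-Cys minus control (SE 0.206, adjusted p = 0.53) that was −0.18 without av22.

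The promoters of Acadm and Cpt1a were the only ones, of the 6 among the 8 genes that were found in the RefSeq table (GRCm38.p6), to hold the word AGGTCA, the core site to which nuclear receptors of the PPAR kind bind. They are shown because they hold a word that was searched for, and the levels of the genes played no part in that choice. The 250 bases before each start site follow, 5′ to 3′ on the strand of the gene, with the word in capitals, read here as its reverse complement TGACCT. The Acadm stretch is chr3:153944644-153944893 on the minus strand and the Cpt1a stretch chr19:3323051-3323300 on the plus strand.
Acadm: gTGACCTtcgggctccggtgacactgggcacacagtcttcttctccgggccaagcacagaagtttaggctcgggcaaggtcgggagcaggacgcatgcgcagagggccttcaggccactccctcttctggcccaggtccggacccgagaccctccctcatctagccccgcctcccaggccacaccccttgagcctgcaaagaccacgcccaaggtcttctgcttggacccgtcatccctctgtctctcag
Cpt1a: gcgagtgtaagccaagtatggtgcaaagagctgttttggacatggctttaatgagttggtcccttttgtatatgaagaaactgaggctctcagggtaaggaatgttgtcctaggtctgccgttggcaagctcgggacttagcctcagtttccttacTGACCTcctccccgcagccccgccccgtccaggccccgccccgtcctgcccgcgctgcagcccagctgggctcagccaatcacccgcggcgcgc
The word begins at −249 in Acadm and at −94 in Cpt1a, counted from the start site. On either strand, AGGTCA was in 16.3% of the 32851 promoters of the same 300-base window in the table. The paired form, a direct repeat of the core site with 1 base between and any base at the fourth position of each copy, was in 0.381% of promoters and in none of the 6, and TATAAA was in 13.6% and in none of the 6. A match is a run of letters and was not tested as a binding site.

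Ppara, the receptor gene itself (ENSMUSG00000022383, chr15:85734983-85802819 on the plus strand), was between 52.3 and 123 CPM over the 20 livers. In Cse-/- no-Cys livers it was at 114, 60.6, 66.4 and 90.2 CPM and in Cse+/- no-Cys livers at 62.6, 85.4, 91.3 and 80.2 CPM, with wide overlap and a difference of 0.05 (SE 0.181, adjusted p = 0.863, edgeR). On the no-Trp diet, knockout livers had 68.3, 123 and 94.3 CPM and heterozygous livers 66.8, 63.0 and 52.3 CPM. Here the ranges were apart, as for 19.6% of all genes tested in this comparison, and the difference was 0.65 (SE 0.208, 1.57-fold), with an adjusted p of 0.0996 in edgeR, where 2.64% of all genes were called. DESeq2 called it (adjusted p = 0.0465), and so did edgeR without av14 (0.0362), while without av15 the difference was 0.42. The genotype difference in Ppara was larger on no-Trp than on no-Cys by 0.60, an interaction of −0.60 (SE 0.276) that did not pass after adjustment (adjusted p = 0.238, edgeR) and was −0.36 without av15.

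The level of Ppara with BSO was narrow, at 76.0, 69.3, 76.4 and 67.5 CPM, and was −0.40 relative to Cse-/- no-Trp without BSO (SE 0.193, adjusted p = 0.396), or −0.18 without av15. Ordered by mean, the groups ran from Cse+/- no-Trp (60.7 ± 7.51 CPM, SD, n = 3) through Cse-/- no-Trp with BSO (72.3 ± 4.58, n = 4), Cse+/- control (73.9 ± 5.66, n = 2), Cse+/- no-Cys (79.9 ± 12.4, n = 4) and Cse-/- no-Cys (82.9 ± 24.6, n = 4) to Cse-/- no-Trp (95.2 ± 27.4, n = 3). Neighbours in this order overlapped, other than the 2 lowest groups.

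Ehhadh (ENSMUSG00000022853, chr16:21761287-21787807 on the minus strand) encodes the bifunctional enzyme of peroxisomal β-oxidation and is a classic PPARα target. Cse-/- no-Cys livers had 841, 412, 586 and 262 CPM and Cse+/- no-Cys livers 192, 254, 369 and 426 CPM. The knockout livers were spread widely, and 2 of the 4 lay inside the heterozygous range. The difference of 0.76 (SE 0.307, 1.69-fold) was not called in edgeR (adjusted p = 0.0791). It was called without av04 (adjusted p = 0.0482) and without av08 (0.0176), and was 0.45 without av05 (0.318). On the no-Trp diet the genotype difference was −0.17 (SE 0.353, adjusted p = 0.841), from 221, 412 and 243 CPM in knockout and 278, 400 and 308 CPM in heterozygous livers.

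Within the knockout genotype, Ehhadh was higher by 0.85 on no-Cys than on no-Trp (SE 0.337, adjusted p = 0.113) and lower by −0.79 with BSO and no-Trp than on no-Cys (SE 0.307, adjusted p = 0.164). Both passed in edgeR when av08 was left out, at 1.07 (adjusted p = 0.0298) and −1.01 (0.0391), and without av05 they were 0.52 and −0.46. The interaction of genotype and diet was 0.93 (SE 0.468, adjusted p = 0.283). By group mean the Cse-/- no-Cys livers stood highest at 525 ± 249 CPM (SD, n = 4), while the other 5 groups lay close together, between 281 and 328 CPM.

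Cyp4a14 and Cyp4a10 encode fatty acid ω-hydroxylases and are among the most PPARα-responsive genes of mouse liver. Cyp4a14 is ENSMUSG00000028715, chr4:115486200-115496142 on the minus strand, and Cyp4a10 is ENSMUSG00000066072, chr4:115518264-115533649 on the plus strand. Cyp4a14 had 3008, 2260, 2664 and 1353 CPM in Cse-/- no-Cys and 1389, 799, 1457 and 1824 CPM in Cse+/- no-Cys livers. Only the liver av08, the lowest of the knockouts, fell within the heterozygous range. The difference was 0.76 (SE 0.335, 1.70-fold, adjusted p = 0.105, edgeR), and 0.95 without av08 (adjusted p = 0.0470). On the no-Trp diet it was −0.06 (SE 0.385, adjusted p = 0.96), and the interaction was 0.82 (SE 0.51, adjusted p = 0.40), or 0.55 without av20.

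For Cyp4a10 the levels were 1073, 598, 754 and 746 CPM in Cse-/- no-Cys and 656, 327, 636 and 754 CPM in Cse+/- no-Cys livers, which overlap. The genotype difference was 0.42 (SE 0.307, adjusted p = 0.345) on no-Cys and 0.45 (SE 0.355, adjusted p = 0.532) on no-Trp by edgeR. The first was 0.22 without av02 and the second 0.099 without av15. The liver av10 of the BSO group was low for both genes, at 297 CPM for Cyp4a10 and 851 CPM for Cyp4a14, whereas av12 of the same group had 987 and 2426 CPM. Per kilobase of merged exons, the mean over 20 livers was 678 CPM for Cyp4a14 and 322 CPM for Cyp4a10, the highest of the 8 genes, against 117 for Acadm and for Ehhadh, 93.0 for Bdh1, 88.2 for Cpt1a, 20.3 for Ppara and 1.83 for Pdk4.

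The count of Cyp4a10 is less certain than that of Cyp4a14, since 24.2% of the 61-base words of its transcripts occur in other genes, mainly Cyp4a32 (19.3%) and Cyp4a31 (11.9%), while no such word of Cyp4a14 is shared. A stretch of the coding sequence shows this. Bases 280 to 340 of the Cyp4a10 coding sequence (GENCODE M21) are identical in Cyp4a31 and Cyp4a32, and the nearest stretch of Cyp4a14 without gaps, bases 274 to 334, differs at 18 positions, which are in capitals.
Cyp4a10, Cyp4a31 and Cyp4a32: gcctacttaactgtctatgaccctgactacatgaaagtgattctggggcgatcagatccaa
Cyp4a14: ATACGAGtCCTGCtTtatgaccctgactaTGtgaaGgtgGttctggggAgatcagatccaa
A read that lies within such a stretch matches all 3 genes, its mate may not, and the sources used here do not say how the counting treated such pairs. Cyp4a31 and Cyp4a32 had mean levels of 29.8 and 30.0 CPM, far below the 679 CPM of Cyp4a10, and their differences between the genotypes on no-Cys were 0.69 (SE 0.361, adjusted p = 0.174) and 0.65 (SE 0.26, adjusted p = 0.0744).

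Bdh1 (ENSMUSG00000046598, chr16:31422280-31458901 on the plus strand) encodes the mitochondrial dehydrogenase that makes β-hydroxybutyrate, the main ketone body in blood, from acetoacetate. It was at 477, 446, 349 and 334 CPM in Cse-/- no-Cys and at 185, 442, 410 and 488 CPM in Cse+/- no-Cys livers. The ranges overlapped, with the lowest level of the series in av01, and the difference was 0.08 (SE 0.201, adjusted p = 0.823, edgeR). Without av01 it was −0.15, as 2 of the 4 knockout livers lay below the other heterozygous livers. On no-Trp the 3 knockout livers (378, 409 and 319 CPM) all lay above the 3 heterozygous livers (304, 276 and 286 CPM), with a difference of 0.35 (SE 0.233, adjusted p = 0.443). The same liver av01 also weighed on the diet comparisons in Cse+/- mice. No-Cys exceeded no-Trp by 0.40 with it (SE 0.219, adjusted p = 0.268) and by 0.63 without it (0.0107), and exceeded control by 0.38 with it (SE 0.251, adjusted p = 0.464) and by 0.62 without it (0.0401). Those differences were 0.26 without av04 and 0.25 without av21. The antisense gene Gm15743 shares 533 exon bases with Bdh1. The sources used here do not give the strand setting of the counting, so reads of the 2 genes may not be separated.

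Pdk4 (ENSMUSG00000019577, chr6:5483351-5496309 on the minus strand) encodes pyruvate dehydrogenase kinase 4, which a fasted liver usually raises. It was the lowest of the 8 genes, at 2.73 to 19.9 CPM, and the most variable, with an SD of 0.713 on the log2 scale within groups; 1.72% of genes had a larger one. The highest livers were av15 (Cse-/- no-Trp, 19.9 CPM), av19 (Cse+/- no-Trp, 17.2 CPM) and av20 (Cse+/- no-Trp, 10.4 CPM). The other livers on no-Trp without BSO had 4.52, 4.53 and 5.61 CPM. In Cse+/- mice Pdk4 was lower on no-Cys (2.88, 4.52, 3.11 and 6.37 CPM) than on no-Trp by a difference of −1.41 (SE 0.483, adjusted p = 0.0783, edgeR), in a comparison that called 8.04% of all genes. The difference was −0.93 without av19, and edgeR called it without the filter on low counts (adjusted p = 0.00835) and without av14 and av17 (0.0367). Of the control livers, 1 had 6.19 and the other 9.19 CPM.

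With BSO, Pdk4 was at 3.05, 4.42, 2.95 and 4.20 CPM, all below the 3 knockout livers on no-Trp alone. The ranges were apart, as for 12.6% of genes, but only narrowly, since 2 of those livers had 4.52 and 4.53 CPM. The difference of −1.38 (SE 0.479, adjusted p = 0.19, edgeR; 0.793% of genes called) was called without the filter (adjusted p = 0.0318) and was −0.33 without av15. Between genotypes Pdk4 differed by 0.22 (SE 0.483, adjusted p = 0.783) on no-Cys and −0.26 (SE 0.489, adjusted p = 0.826) on no-Trp. Both changed sign with 1 liver left out, the first to −0.15 without av05 and the second to 0.22 without av19, and the second was −1.33 without av15. These SEs are the largest of the 8 genes in both comparisons.

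**Figure D2:**
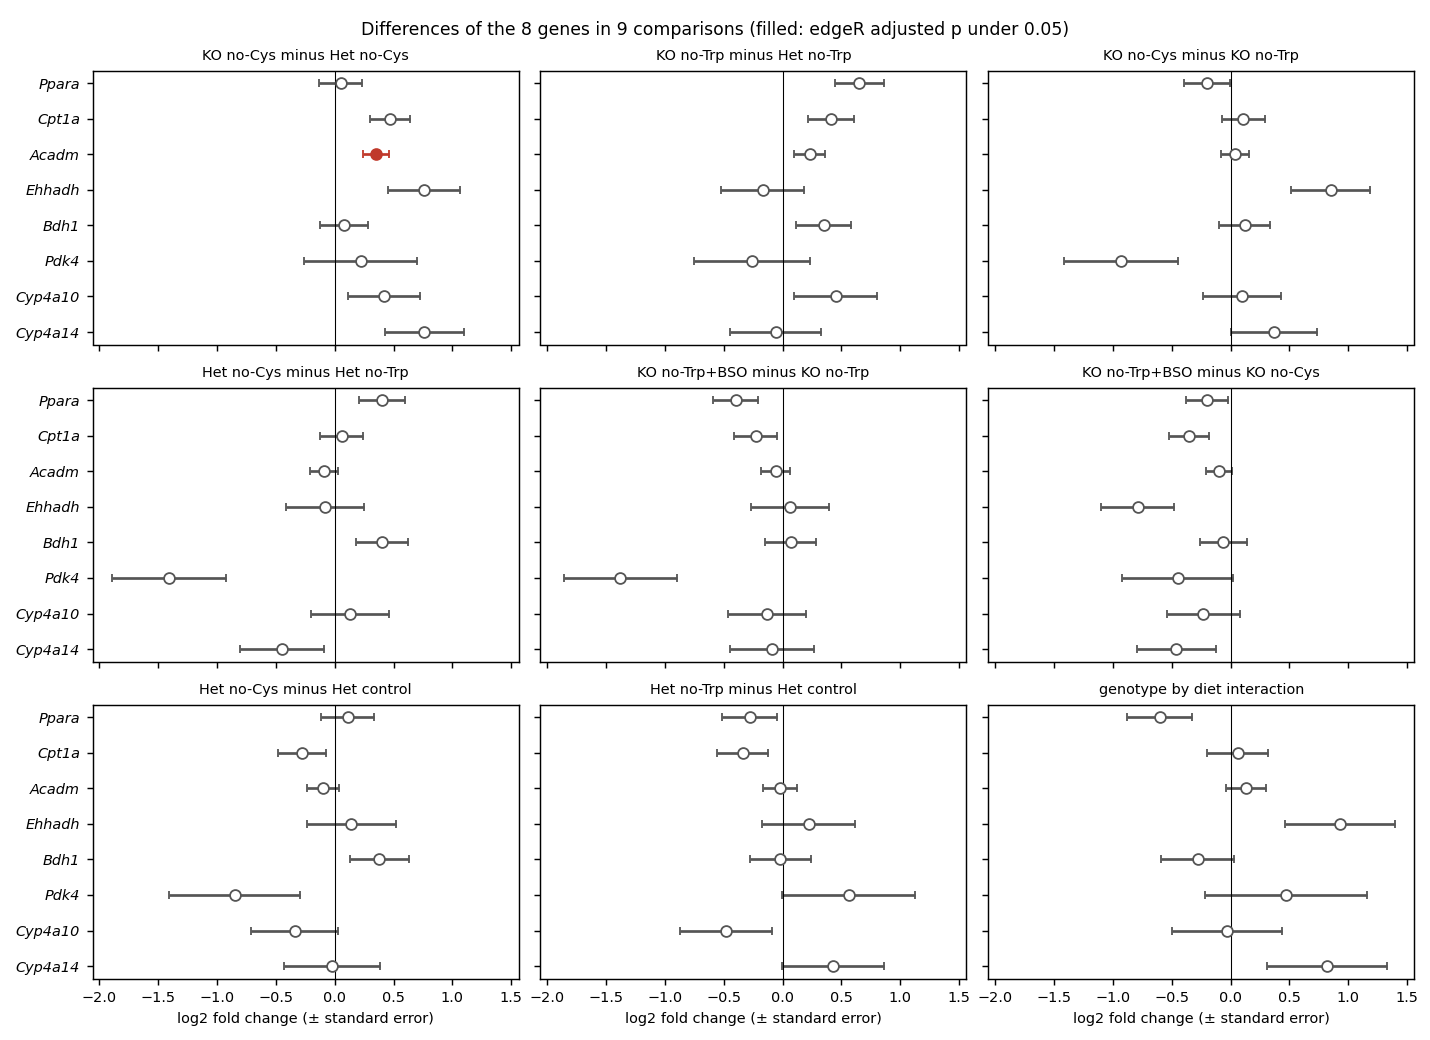
Log2 fold change with its SE for the 8 genes in the 9 comparisons, on the same axis in every panel. The filled point is Acadm in Cse-/- (KO) against Cse+/- (Het) no-Cys, the only difference with an edgeR adjusted p under 0.05; the widest bars belong to Pdk4.

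Side by side, all 8 genes had a positive difference in Cse-/- against Cse+/- no-Cys, with a median of 0.39 (range 0.05 to 0.76), where the median of all genes was −0.00928. The direction did not hold for 3 of them with 1 liver left out: without av05 Ppara was at −0.13 and Pdk4 at −0.15, and without av01 Bdh1 was at −0.15. Without adjustment 4 of the 8 had p under 0.05, against 36.2% of all genes. The hepatocyte markers went the other way in this comparison: 6 of 10 fell and 1 (Cps1) rose. Their sum was 51260 to 83064 CPM in Cse-/- and 98842 to 125915 CPM in Cse+/- livers. Much of that gap lay in Alb, at −1.26, with means of 32673 CPM in Cse-/- and 78315 CPM in Cse+/- livers. Blood genes were lower too, all 5 tested, with sums of 69.1 to 114 CPM against 201 to 406 CPM. Of 8 markers of periportal hepatocytes 1 rose and none fell, and of 8 of pericentral hepatocytes 2 rose and 1 fell. Whether these shifts in marker levels bear on the 8 genes was not tested. In bulk tissue fewer cells of a type, less RNA per cell and a change of the marker genes themselves cannot be told apart.

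On no-Trp, 5 of the 8 genotype differences were positive, with a median of 0.29 (range −0.26 to 0.65), where the all-gene median was 0.00243. None was called (2.64% of genes), 1 had an unadjusted p under 0.05 (18.4% of genes), and 2 had ranges apart (19.6% of genes), Ppara and Bdh1. For diet within Cse-/- (no-Cys minus no-Trp) none of the 8 was called, against 10.4% of genes. There 1 had an unadjusted p under 0.05 (26.5% of genes), none had ranges apart (20% of genes), and 6 were positive (median 0.11). The same contrast in Cse+/- mice gave 1 with an unadjusted p under 0.05 (24.4% of genes), none with ranges apart (19% of genes), and a median of −0.01.

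With BSO none of the 8 was called against Cse-/- no-Trp (0.793% of genes), and 1, Pdk4, had an unadjusted p under 0.05 (13% of genes). Against Cse-/- no-Cys none was called either (2.75% of genes), 1, Ehhadh, had an unadjusted p under 0.05 (20% of genes), and 1, Cpt1a, had ranges apart (12.7% of genes). All 8 were negative in that comparison, with a median of −0.29, but Bdh1 was at 0.036 without av05 and Cyp4a10 at 0.0049 without av10. Of the 10 hepatocyte markers 5 rose and none fell there, with a median of 0.47, and none of the 5 blood genes was called; their part in the result was not tested.

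In Cse+/- mice none of the 8 was called, or had an unadjusted p under 0.05, on no-Cys against control (2.18% and 16.6% of genes) or on no-Trp against control (0.0474% and 9.29% of genes). In each, 1 of the 8 had ranges apart, Cpt1a in the first (25.6% of genes) and Ppara in the second (27.4% of genes). These comparisons had 2 control livers, and their SEs reached 0.559 and 0.566. For the interaction none was called where 4.36% of genes were, 1 had an unadjusted p under 0.05 (19.4% of genes), and the 8 values ran from −0.60 to 0.93. With DESeq2 the number of the 8 genes called was 2 for genotype on no-Cys (22.3% of genes), 1 for genotype on no-Trp (5.35%) and 0 in the other 7 comparisons, where DESeq2 called from 0.459% to 12.9% of genes. Several of these comparisons share groups, so that their values are not independent.

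Single livers stood apart across the genes. The liver av05 of the Cse-/- no-Cys group was among the 3 highest of 20 for 7 of the 8 genes, and av15 of the Cse-/- no-Trp group for 6. Both were above the mean of 20 livers for all 8 genes, which held for no other liver, with a median deviation of 0.619 for av05 and 0.637 for av15 on the log2 scale. At the other end, av01 of the Cse+/- no-Cys group was among the 3 lowest for 6 genes, with a median deviation of −0.373. Neither liver was chosen by a rule; both were singled out after their values were seen. Kidney genes were the second highest of the series in av15, as given above, and 0.177 CPM in av05. Leaving out av15 together with av22, the other liver with kidney genes, gave none of the 8 genes called in any comparison these livers enter. In those fits 0.0131% to 9.55% of all genes were called. Leaving out av14 and av17, those with adipocyte genes, gave 1 call each in 2 comparisons. These were Ppara in Cse-/- against Cse+/- no-Trp (0.91, adjusted p = 0.0402, edgeR; 3.92% of genes called) and Pdk4 in Cse+/- no-Cys against no-Trp (−1.70; 6.47% of genes called). The part of these tissues in the levels of the 8 genes was not tested further. The liver av08 differed from its Cse-/- no-Cys group in hepatocyte markers, with a sum of 83064 CPM against 51260 to 55553 CPM. Without av08, genes called over the whole table went from 643 to 1150 for the interaction. They went from 406 to 1027 for BSO against Cse-/- no-Cys, and from 3515 to 3500 for genotype on no-Cys. This liver too was singled out after its values were seen.

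**Figure D3:**
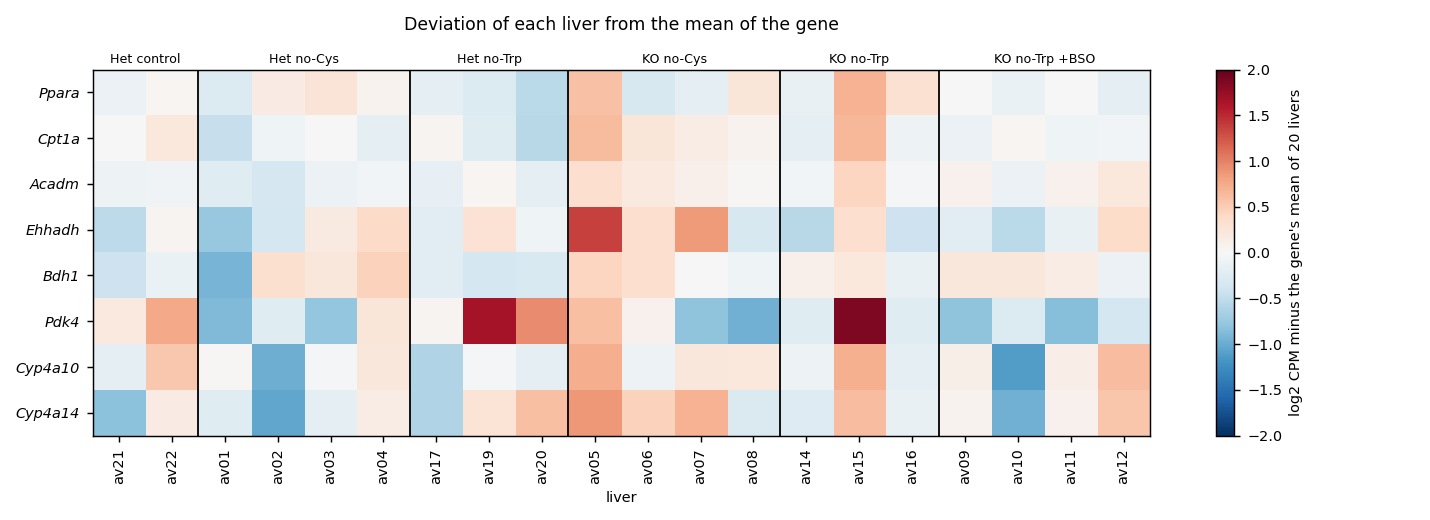
Deviation of each liver (columns, by group) from the mean of the gene over 20 livers (rows), in log2 CPM; red is above the mean and blue below. The columns av05 and av15 are red for all 8 genes, and av01 is blue for 7.

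Within groups, the pooled SD of log2 CPM was 0.156 for Acadm, 0.261 for Cpt1a, 0.288 for Ppara, 0.34 for Bdh1, 0.504 for Ehhadh, 0.522 for Cyp4a10, 0.565 for Cyp4a14 and 0.713 for Pdk4. The last 4 were among the more variable genes of the liver: 5.75%, 5.23%, 3.96% and 1.72% of genes had a larger SD. Over the 20 livers the Pearson correlation between pairs of the 8 genes ran from 0.01 (Bdh1 with Pdk4) to 0.79 (Cyp4a10 with Cyp4a14). Ehhadh went with Cyp4a14 at 0.78, Acadm with Cyp4a14 at 0.73 and with Cyp4a10 at 0.72, and Cpt1a with Acadm at 0.71 and with Ppara at 0.70. Ppara with Cyp4a14 was at 0.09. These values are descriptions over livers that share groups and libraries.

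Of the genes outside the 8, Pdk4 was most like Slc25a20, the carnitine-acylcarnitine carrier (r = 0.92 over 20 livers, of 12582 genes compared), then Pxmp4 (0.87) and Pex11a (0.84), both of the peroxisomal membrane. The genes nearest to Acadm included Prune1 (0.88) and Nnt (0.85), the mitochondrial transhydrogenase. For Cyp4a14 the nearest were Cyp4a31 (0.79), Gadd45b (0.78) and Srcap (0.74), and for Cyp4a10 they were Snx16 (0.81), Baiap2l1 (0.74) and Acot4 (0.72), a peroxisomal acyl-CoA thioesterase. Ehhadh was most like Nadk (0.82), an NAD kinase, Abcb4 (0.80), a canalicular phospholipid transporter, and Entpd6 (0.79). Bdh1 went with Pex6 (0.88), Pctp (0.87) and 2810006K23Rik (0.84). Cpt1a was most like Gm13910 (0.89), Srbd1 (0.89) and Rmdn3 (0.88), and Ppara like Ylpm1 (0.84), Gtf3c4 (0.83) and Chdh (0.83).

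The wider pathway around the 8 genes was read from 9 lists, which hold the 8 genes too. In the no-Cys genotype comparison, 11.6% of all genes were called higher and 12.2% lower in Cse-/- livers. Of 13 nuclear receptors and partners, 3 rose (1 without av05) and none fell, with Pparg, the adipose form of the receptor, the highest at 0.73 (SE 0.196, adjusted p = 0.0103, edgeR). Its level was low, 7.16 ± 1.19 CPM (SD, n = 4) in Cse-/- and 4.29 ± 1.12 CPM (n = 4) in Cse+/- livers. On no-Trp none of the 13 was called.

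Genes that bring fatty acids into the cell and activate them parted in both directions: of 11, 2 rose and 5 fell. The fatty acid translocase Cd36 rose most, by 2.89 (SE 0.181, adjusted p = 1.51e-08), from 27.4 ± 3.48 CPM in Cse+/- to 203 ± 22.3 CPM in Cse-/- livers (n = 4 each). The rise was also present on no-Trp, at 2.61 (SE 0.204, adjusted p = 8.73e-07). The cytosolic carrier Fabp1 fell by 1.68 on the log2 scale, the lowest value of the list (SE 0.329, adjusted p = 0.00112), from 4222 ± 2214 to 1319 ± 448 CPM, and on no-Trp its value was −0.31 (adjusted p = 0.697).

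Of the 6 genes of the carnitine shuttle none was called in any of the 9 comparisons. In mitochondrial β-oxidation, 1 of 16 rose, which was Acadm, and 3 fell, with a list median of −0.08. Acaa2, the thiolase of the last step, fell by 0.66 on the log2 scale (SE 0.0952, adjusted p = 8.1e-05), from 1119 ± 155 to 709 ± 42.5 CPM. In peroxisomal β-oxidation 3 of 14 fell and none rose, with a list median of −0.07. With 1 liver left out, 2 to 4 fell, and 2 rose without av04 and 1 without av08. The acyl-CoA transporter Abcd2, the lowest of the list, fell by 2.38 on the log2 scale (SE 0.39, adjusted p = 0.000253), from 21.4 ± 5.45 to 4.14 ± 3.09 CPM, and its interaction of genotype and diet was −2.04 (adjusted p = 0.0448). Of 9 genes of ω-oxidation, Cyp4f14 fell by 0.84 (SE 0.113, adjusted p = 3.96e-05) and none rose (3 rose without av08 and 1 without av06), although 4 genes of the Cyp4a family had positive values above 0.40 without a call. The family's Cyp4a12a had a mean of 62.0 CPM in Cse-/- and 69.7 CPM in Cse+/- livers. For Cyp4a12b the means were 40.2 and 36.0 CPM.

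Among 7 genes of ketone body synthesis and export, 1 fell and none rose, with a list median of −0.13. The number that fell was 0 without av04 or av07 and 2 without av01 or av05, and 1 gene rose without av06. On no-Trp none of the 7 was called. Of the 9 tested genes of pyruvate dehydrogenase and its control, the kinases Pdk2 and Pdk1 went in opposite directions, Pdk2 at 0.31 (SE 0.10, adjusted p = 0.0321) and Pdk1 at −0.49 (SE 0.118, adjusted p = 0.00523). The Pdk2 call was lost without av01, av02 or av08. On no-Trp both were higher in Cse-/- than in Cse+/- livers, Pdk1 by 0.64 (SE 0.136, adjusted p = 0.0166) and Pdk2 by 0.44 (SE 0.116, adjusted p = 0.045). Mean Pdk1 was 99.0 CPM in Cse-/- no-Trp, 63.3 CPM in Cse+/- no-Trp and 98.0 CPM in Cse+/- control livers. For Pdk2 these means were 170, 124 and 159 CPM. For Pdk1 the reversal itself passed the test, with an interaction of −1.13 (SE 0.18, adjusted p = 0.00203).

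Of 15 other PPARα target genes, 3 rose and none fell on no-Cys, with a median of 0.32. The number that rose was 1 without av05 and 5 without av08, and 1 gene fell without av01 or av05. Fgf21, the hormone of the starved liver that is also driven by amino acid shortage, rose most, by 4.50 (SE 0.718, adjusted p = 0.000204), from 1.24 ± 1.22 to 29.1 ± 18 CPM (n = 4 each), with 1 knockout liver at 2.95 CPM. On no-Trp its value was 1.82 (SE 0.749, adjusted p = 0.198), and none of the 15 was called. Over the 9 lists, the genotype comparison on no-Trp called 3 genes, Cd36, Pdk1 and Pdk2, all higher, where 2.64% of all genes were called.

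**Figure D4:**
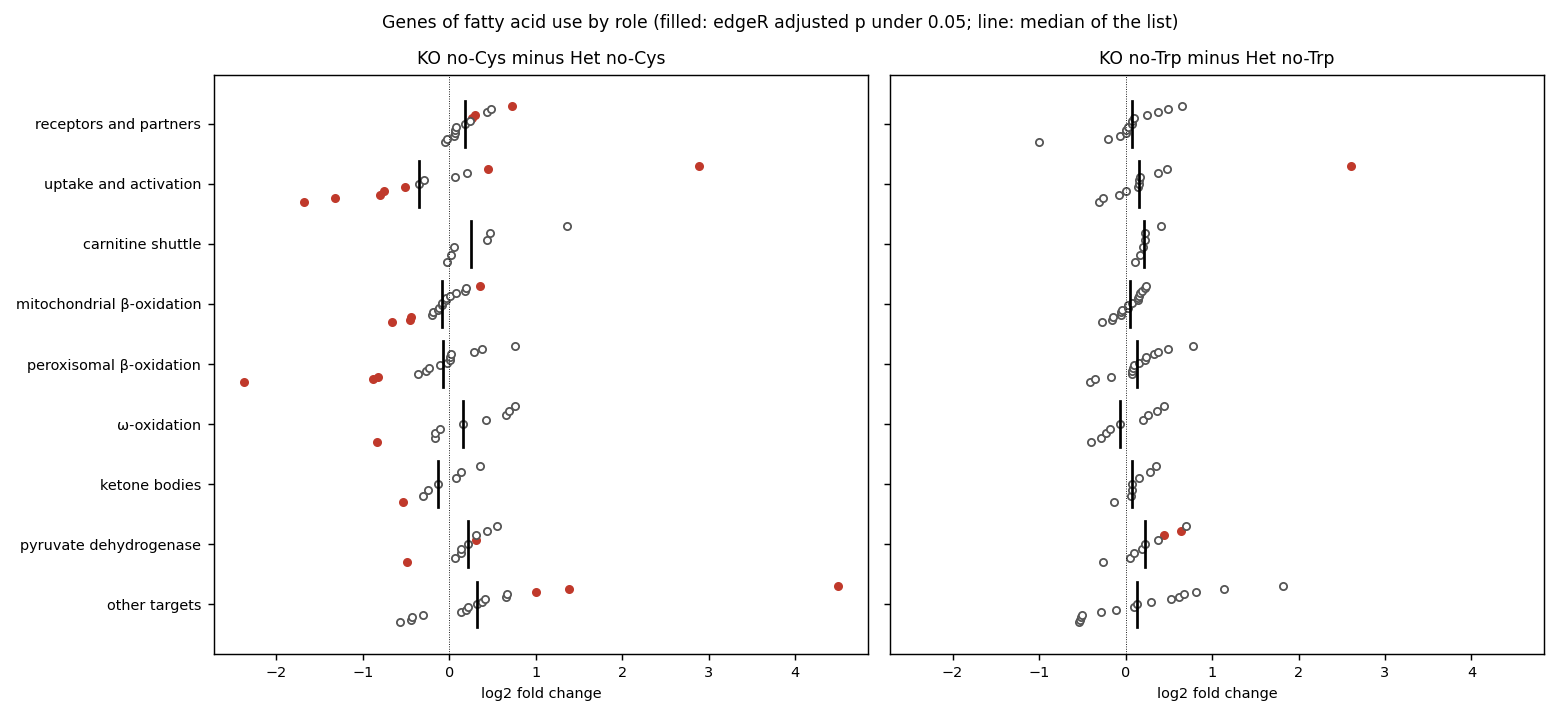
Log2 fold change of each tested gene of the 9 lists in Cse-/- (KO) against Cse+/- (Het) livers on no-Cys (left) and no-Trp (right), with the list median as a line and called genes filled. On no-Cys the calls lie on both sides of 0, and on no-Trp 3 genes are filled, with Cd36 at 2.61.

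The other comparisons are given with the share of all genes called in each direction. In Cse-/- mice, no-Cys against no-Trp lowered 5 of the 11 uptake and activation genes and 3 of the 16 of mitochondrial β-oxidation, among them Acaa2 (−0.44, adjusted p = 0.0101, edgeR) and Fabp1 (−1.14, adjusted p = 0.0393). Fgf21 was higher by 2.20 (adjusted p = 0.0341). In this comparison 5.05% of all genes were higher and 5.35% lower, and 5 of the 10 hepatocyte markers and 3 of the 5 blood genes fell, whose part was not tested. The other calls were 1 higher gene of receptors and partners, the coactivator Lpin1 (1.36, adjusted p = 0.00859), 1 lower gene each of ω-oxidation and ketone bodies, and 2 lower among the other targets. BSO on the no-Trp diet lowered 1 gene of the 9 lists, the acyl-CoA synthetase Acsl3 (−0.87, SE 0.177, adjusted p = 0.0227), where 0.305% of genes were lower. Against Cse-/- no-Cys, the BSO group had 1 higher gene of uptake and activation, 1 higher of ω-oxidation and 1 lower among the other targets (1.42% of genes higher and 1.33% lower). For Cse+/- mice against the control diet, none of the 9 lists had a call on no-Cys or no-Trp. Between the 2 diets in Cse+/- mice, 1 acyl-CoA synthetase was higher on no-Cys, Acsl5 (0.54), and 1 lower, Acsl4 (−0.62), 1 gene each of peroxisomal β-oxidation and of pyruvate dehydrogenase control was higher, and 1 other target was lower (4.63% of genes higher and 3.41% lower). The interaction of genotype and diet was called for 6 genes of the lists, against 1.67% of genes higher and 2.69% lower. It was negative for 2 acyl-CoA synthetases, Acsl3 (−1.49) and Acsl5 (−0.99), and for Abcd2, Cyp4f14 (−0.67) and Pdk1, and positive for Hilpda, a lipid droplet protein (1.53, adjusted p = 0.0484, edgeR). Acsl3, Acsl4, Acsl5, Hilpda and Lpin1 were named after their values were seen.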

How the data were processed

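Liver RNA was sequenced by the authors as paired reads from poly(A) libraries. Per the labels and the submitters' processing notes, reads were aligned to GRCm38 with HISAT2 2.1.0 and counted per gene with HTSeq 0.11.0, and the authors deposited raw counts for 46078 Ensembl genes in 21 columns. Not given in the sources used here were the annotation release, the strand setting and the handling of reads that fit several genes. Of the columns, 20 with a stated condition were used and 1 was not. Columns were matched to groups, not to numbered samples. Symbols came from GENCODE M21 for 45143 genes, and 935 had none.

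Genes were kept with the edgeR 4.0.16 filter (minimum count 10, minimum total 15; R 4.3.3). Counts were scaled with TMM, and all 6 groups were fitted in 1 quasi-likelihood model with a common dispersion of 0.027. Comparisons were contrasts of group means, p-values are two-sided and adjusted with Benjamini-Hochberg over 14759 genes, and a gene was called at an adjusted p under 0.05. An SE is the log2 fold change divided by the root of F. The interaction is the genotype difference on no-Cys minus that on no-Trp. Log2 CPM values used a prior count of 2. Ranges are apart when no liver of one group lies within the range of the other. Replicates are single mice.

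DESeq2 1.42.0, a fit of the compared groups alone, no filter on low counts, an adjusted p under 0.01 and leaving out each liver were among the alternatives. Leaving out the livers with kidney or adipocyte genes was chosen after seeing the data. On data simulated for Cse-/- against Cse+/- no-Cys (13255 genes, 200 changed), the edgeR test recovered 72% of 2-fold and 99% of 4-fold changes with 11 false calls. The members and gene lists were chosen with earlier results of these data known. Other genes are named where they had the largest called change of their list, where their pattern was nearest to a member by Pearson correlation, or where they share sequence with a member. Some genes that this rule names are not reported here.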

Additional observations from a re-analysis of the deposited data

How the results depend on the processing

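Over 82 log2 fold changes and 8 alternatives other than leaving out livers, none of the 656 values changed sign and 15 changed their call. The number of the 8 genes called is given with the share of all genes called in the same fit. In Cse-/- against Cse+/- no-Cys it was 2 with DESeq2 (22.3%), 2 in a fit of the groups alone (22.1%), 4 without the filter on low counts (11.1%), 0 at an adjusted p under 0.01 (12.6%), and 0 to 4 when 1 liver was left out (18.1% to 23.7%; 0 without av01, av02, av05 or av06, 2 without av04, 4 without av08). In the same genotypes on no-Trp it was 1 with DESeq2 (5.35%), without the filter (2.08%) or without the livers with adipocyte genes (3.92%), and 0 to 1 with 1 liver left out (1 without av14, 2.87%). For Cse+/- no-Cys against no-Trp it was 1 without the filter (4.35%) or those livers (6.47%), and 0 to 1 (1 without av01, 7.44%). Without the filter it was also 1 for Cse-/- no-Cys against no-Trp (5.25%) and for BSO against Cse-/- no-Trp (1.05%). Leaving out 1 liver gave 0 to 1 in Cse-/- no-Cys against no-Trp (1 without av08, 12.6%), in BSO against Cse-/- no-Cys (1 without av08, 6.97%) and in Cse+/- no-Cys against control (1 without av01, 2.84%). The cause was not tested.

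Some differences changed sign when 1 liver was left out, among them that of Pdk4 in Cse-/- no-Cys against no-Trp (−0.93, and 0.13 without av15). In Cse-/- against Cse+/- no-Cys the ranges were −0.15 to 0.22 for Bdh1, −0.15 to 0.49 for Pdk4 and −0.13 to 0.17 for Ppara. On no-Trp they were −0.39 to 0.22 for Cyp4a14 and −1.33 to 0.22 for Pdk4. For Cse-/- no-Cys against no-Trp they were −0.044 to 0.21 for Acadm, −0.034 to 0.42 for Cpt1a, −0.079 to 0.44 for Cyp4a10, −1.31 to 0.13 for Pdk4 and −0.39 to 0.024 for Ppara. For Cse+/- no-Cys against no-Trp they were −0.077 to 0.22 for Cpt1a, −0.013 to 0.34 for Cyp4a10 and −0.27 to 0.094 for Ehhadh. For BSO against Cse-/- no-Trp they were −0.15 to 0.11 for Acadm, −0.039 to 0.14 for Bdh1, −0.39 to 0.072 for Cpt1a, −0.39 to 0.20 for Cyp4a10, −0.32 to 0.23 for Cyp4a14 and −0.14 to 0.38 for Ehhadh. For BSO against Cse-/- no-Cys they were −0.14 to 0.036 for Bdh1 and −0.48 to 0.0049 for Cyp4a10. Against control, no-Cys gave −0.66 to 0.063 for Cyp4a10, −0.43 to 0.55 for Cyp4a14 and −0.12 to 0.46 for Ehhadh, and no-Trp gave −0.084 to 0.027 for Acadm, −0.15 to 0.13 for Bdh1 and −0.031 to 0.55 for Ehhadh. For the interaction they were −0.10 to 0.38 for Cpt1a, −0.23 to 0.32 for Cyp4a10 and −0.00036 to 1.54 for Pdk4.

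No paired analysis was possible because the matrix columns carry no replicate number. For each of the 8 genes the SE was largest in the interaction.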
